A study of Mus musculus with 3 samples.

Results

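The genes described here are 56 genes of mitosis, whose products compact the chromosomes, build the spindle, attach chromosomes to it and divide the cell. They were taken by gene symbol from a list chosen with earlier results of these data known. Each of the 56 was found among the 18287 genes listed in both deposited comparisons against control. All 56 are protein-coding, and all had a mean normalized count of at least 10, so a filter on low counts removed none of them.

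RNA was sequenced from purchased mouse aortic endothelial cells, in 3 groups of 1 library each. The control cells had no treatment named in their label. The glucose oxidase cells received 5 mU/mL of that enzyme for 30 min. It oxidizes glucose and releases hydrogen peroxide. The third group, here the combined library, received the same glucose oxidase treatment and 0.2 mM ethyl-2-hydroxybenzylamine (Et2HOBA) for 24 h, a compound the study used to scavenge adducts formed under high levels of reactive oxygen species. The labels do not give the order of the exposures, the time from exposure to harvest, or the strain, sex, age or passage of the cells. An Et2HOBA group without glucose oxidase was not analysed here. All groups share the same cell type and supplier medium.

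Library totals over listed genes ran from 35005089 to 40212212 reads. With 1 library per group, no difference below has a replicate check, no test between conditions could be made, and each ratio compares 2 libraries. The 95% intervals are exact Clopper-Pearson intervals on the reads, and cover counting error only, since reads without molecular identifiers are not independent molecules. Levels are normalized counts, which are reads divided by a size factor fitted over all 3 libraries. Log2 ratios were taken after adding 10 to each normalized count, and a gene is said to pass the limit at a log2 ratio of 1 or more in either direction. All 10 endothelial markers checked were listed, with summed normalized counts between 202172 and 317724 per library, highest in control. Among them Tek, Vwf and Kdr were lower than control past the limit in both treated libraries, with log2 ratios from -2.01 to -1.02. After glucose oxidase 3 of the 10 passed downward, against 8.60% of all listed genes, and in the combined library 4 of the 10, against 8.04%. The medians of the 10 were -0.44 after glucose oxidase and -0.64 in the combined library. Of the smooth muscle markers 5 of 6 were listed (summed normalized counts 3717 to 4859, nearly all from Smtn), of the fibroblast markers 3 of 6 (151 to 2807, mostly Pdgfra, highest in the combined library), and of the leukocyte markers 4 of 8 (8152 to 26860, mostly Cd68, highest in the combined library). The remaining markers of these sets, Ptprc, Adgre1, Itgam, Cd3e, Col1a2, Dcn, Lum and Cnn1, were not among the listed genes. The deposited tables hold no gene whose highest count over the libraries is under 5 reads. The part of other cells in the differences below was not tested.

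As background, the transcripts of most of these genes are scarce in resting cells and accumulate from S phase to mitosis. Their promoters often carry a cell cycle genes homology region (CHR), bound by MuvB complexes that repress in quiescence and, with B-MYB and FOXM1, activate in G2, and CCAAT boxes bound by NF-Y. Adult arterial endothelium is mostly quiescent, whereas endothelial cells in culture divide.

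The mitotic genes were lower in both treated libraries than in control, and lower again in most cases in the combined library. Summed over the 56 genes, there were 81396 reads among 35969965 in control, 28191 among 35005089 after glucose oxidase and 20933 among 40212212 in the combined library. After glucose oxidase 49 of the 56 passed the limit downward and 0 upward, against 8.60% of all listed genes downward (4.76% of protein-coding genes). In the combined library 51 of 56 were lower than control past the limit and 0 higher, against a background of 8.04% downward (9.30% of protein-coding genes). The median log2 ratio of the members was -1.74 after glucose oxidase, beside -0.01 over all listed genes. With Et2HOBA added it was -2.59, beside a median of all listed genes within 0.01 of 0. The median member stood at 29.4% of its control level after glucose oxidase and at 15.8% in the combined library. The log2 ratio was below 0 for all 56 members in both comparisons, as it was for 9349 (51.10%) and 9146 of the 18287 listed genes. Each counting interval of a member's ratio lay below 1. At these depths that also holds for small differences, as for Cenpb, not a member, at 96.3% (93.9 to 98.7%) after glucose oxidase. The share of all listed genes with such an interval was not computed. Both comparisons use the same control library, so a low or high control count moves them together. The members were chosen with earlier results of these data known, so their counts beside the background only describe the list. A lower RNA level in such bulk samples can come from fewer dividing cells or from less RNA per dividing cell, and the 2 cannot be told apart.

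**Figure D1:**
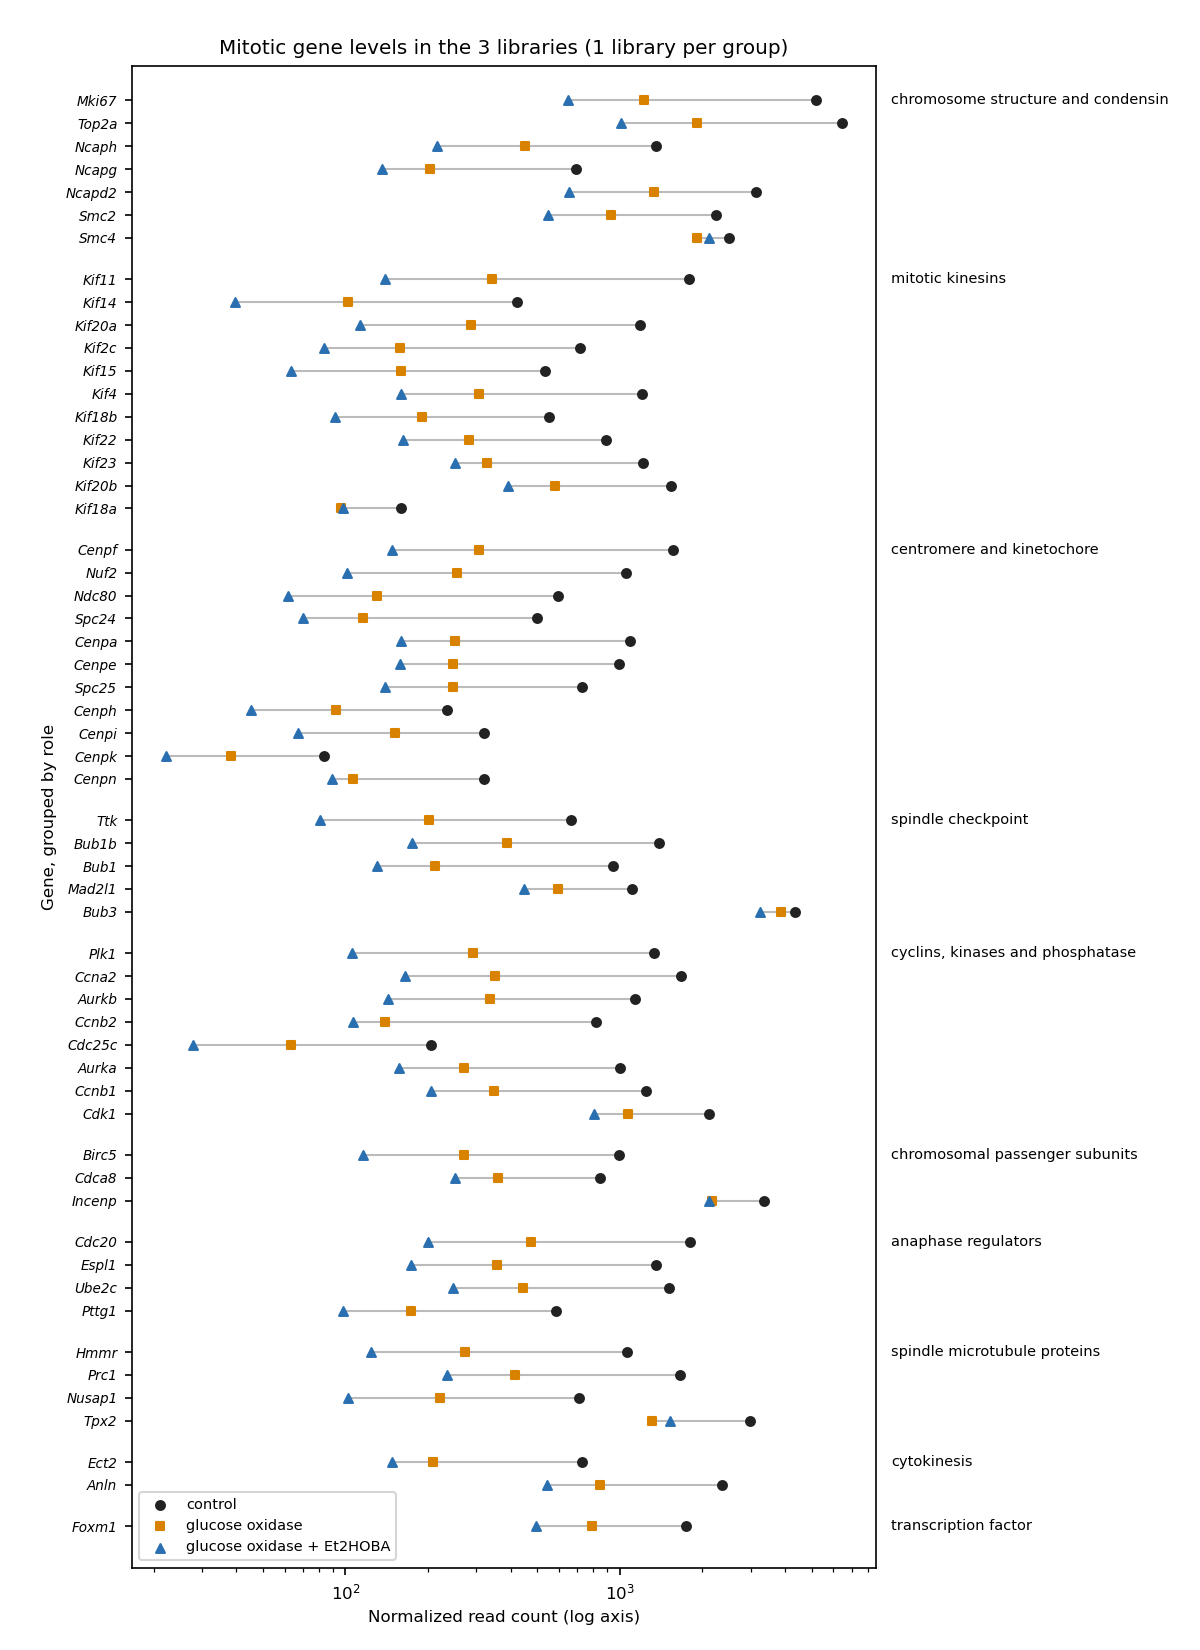
Normalized read counts (log axis) of the 56 mitotic genes, 1 row per gene grouped by role, with 1 point for each library: control (circle), glucose oxidase (square) and glucose oxidase plus Et2HOBA (triangle). For 53 of the 56 genes the order is control, glucose oxidase, combined from high to low; Smc4, Kif18a and Tpx2 are the exceptions, and Bub3, Smc4, Incenp and Kif18a show the shortest spans.

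The chromosome structure group held 7 genes, of which 6 passed the limit downward in each comparison with control. Counts for this and the other role groups stand beside 8.60% and 8.04% of all listed genes downward (4.76% and 9.30% of protein-coding genes). Mki67 (ENSMUSG00000031004.8, chr7:135689784-135716361), which encodes the Ki-67 protein that coats mitotic chromosomes and is the common marker of dividing cells, was covered by 5338 control reads, 1181 reads with glucose oxidase alone and 675 in the combined library. Read counts below are given in this order of libraries, and gene coordinates are those deposited, on mm10 (GRCm38). Relative to control this was 23.7% (95% interval 22.2 to 25.2%) and 12.6% (11.6 to 13.6%). Top2a, the DNA topoisomerase that untangles sister chromatids, had 6671, 1842 and 1048 reads across the libraries, the highest count of any member in control. The condensin I complex compacts chromosomes and consists of a pair of SMC ATPases and 3 non-SMC subunits. The non-SMC subunits were all low. Ncapd2 had 3226, 1287 and 678 reads, Ncapg 717, 197 and 141 reads and Ncaph 1401, 437 and 224 reads, which left them at 20.9%, 19.5% and 15.9% of control in the combined library. The SMC subunits differed from each other. Smc2 stood at 41.6% and then 24.4% of control, whereas Smc4 (ENSMUSG00000034349.14, chr3:69004738-69034623), with 2590, 1843 and 2189 reads, stood at 76.1% (71.6 to 80.8%) and 84.0% (79.3 to 88.9%). Both SMC proteins also serve condensin II, whose own subunits are given further below.

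Promoter sequences of the members were also examined, as a description with no test. RefSeq windows on GRCm38.p6, from 250 bases before to 50 bases after an annotated start, matched 47 of the 56 genes, taking for each gene the window nearest to its deposited 5′ end. The distance was within 100 bases for 38 of the 47, and the largest was 3867 bases. No window was matched for Aurkb, Ccna2, Cdc25c, Foxm1, Incenp, Kif20a, Smc4, Spc24 and Tpx2. The CHR was searched as TTTGAA or TTCGAA and the NF-Y box as CCAAT, each on both strands. In the member windows, 2 pairs of neighbouring matches overlapped. The 4 windows below belong to the members with the most control reads among those holding both kinds of match. They are written 5′ to 3′ on the gene's strand, with CHR and CCAAT matches in capitals. Top2a (chr11:99024140-99024439, minus strand), Mki67 (chr7:135716330-135716629, minus strand) and Ncapd2 (chr6:125191537-125191836, minus strand) passed the limit against control in both treated libraries. Bub3 (chr7:131560120-131560419, plus strand), which encodes a spindle checkpoint protein, did not, at 89.3% and 74.9% of control.
Top2a: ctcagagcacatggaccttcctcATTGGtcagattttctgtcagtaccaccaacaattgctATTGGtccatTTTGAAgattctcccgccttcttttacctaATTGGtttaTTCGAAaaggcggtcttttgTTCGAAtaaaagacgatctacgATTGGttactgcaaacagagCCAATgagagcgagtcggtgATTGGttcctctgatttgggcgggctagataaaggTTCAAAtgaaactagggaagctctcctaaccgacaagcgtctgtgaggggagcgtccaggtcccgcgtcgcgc
Mki67: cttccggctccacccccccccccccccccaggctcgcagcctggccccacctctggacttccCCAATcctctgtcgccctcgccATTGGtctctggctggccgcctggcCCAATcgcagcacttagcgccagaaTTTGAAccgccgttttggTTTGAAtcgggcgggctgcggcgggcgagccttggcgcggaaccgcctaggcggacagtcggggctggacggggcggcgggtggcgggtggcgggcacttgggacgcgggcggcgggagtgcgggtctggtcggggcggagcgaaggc
Ncapd2: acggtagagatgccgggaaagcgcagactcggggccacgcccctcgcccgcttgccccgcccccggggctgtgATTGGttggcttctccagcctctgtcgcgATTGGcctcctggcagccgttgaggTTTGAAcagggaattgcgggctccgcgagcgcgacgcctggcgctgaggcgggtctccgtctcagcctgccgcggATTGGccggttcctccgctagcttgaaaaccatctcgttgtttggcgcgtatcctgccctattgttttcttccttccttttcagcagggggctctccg
Bub3: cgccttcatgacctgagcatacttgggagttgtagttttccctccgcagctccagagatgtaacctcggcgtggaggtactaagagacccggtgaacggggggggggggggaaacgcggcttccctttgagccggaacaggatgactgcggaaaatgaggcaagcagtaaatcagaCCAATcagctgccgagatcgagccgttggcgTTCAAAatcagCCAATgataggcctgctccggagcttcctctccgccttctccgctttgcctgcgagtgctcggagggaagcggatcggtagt

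The Top2a window holds 4 CHR and 6 CCAAT matches, that of Mki67 2 and 3, that of Ncapd2 1 and 3, and that of Bub3 1 and 2. Of the 47 member windows 35 (74.5%) held a CHR match, compared with 19.2% of all 32851 windows in the RefSeq table and 14.2% of the 11119 listed genes chosen in the same way. A CCAAT match was present in 35 (74.5%), against 37.4% of all windows and 38.8% of listed genes. Both kinds occurred together in 30 (63.8%), against 7.52% and 6.22%. Many of these genes are textbook CHR genes, and short motifs match by letters alone, so these shares describe the windows and are no evidence of binding. Within the members, those with and without a CHR match had similar medians. In the combined library against control, the median log2 ratio was -2.70 for the 35 with a match and -2.50 for the 12 without. The ranges overlapped almost fully, from -3.58 to -0.42 and from -3.25 to -0.65. Nuf2, Pttg1, Nusap1, Ncaph, Birc5, Mad2l1 and Kif18a held neither motif in these windows, and the first 5 of them stood between 9.63% and 16.8% of control in the combined library.

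**Figure D2:**
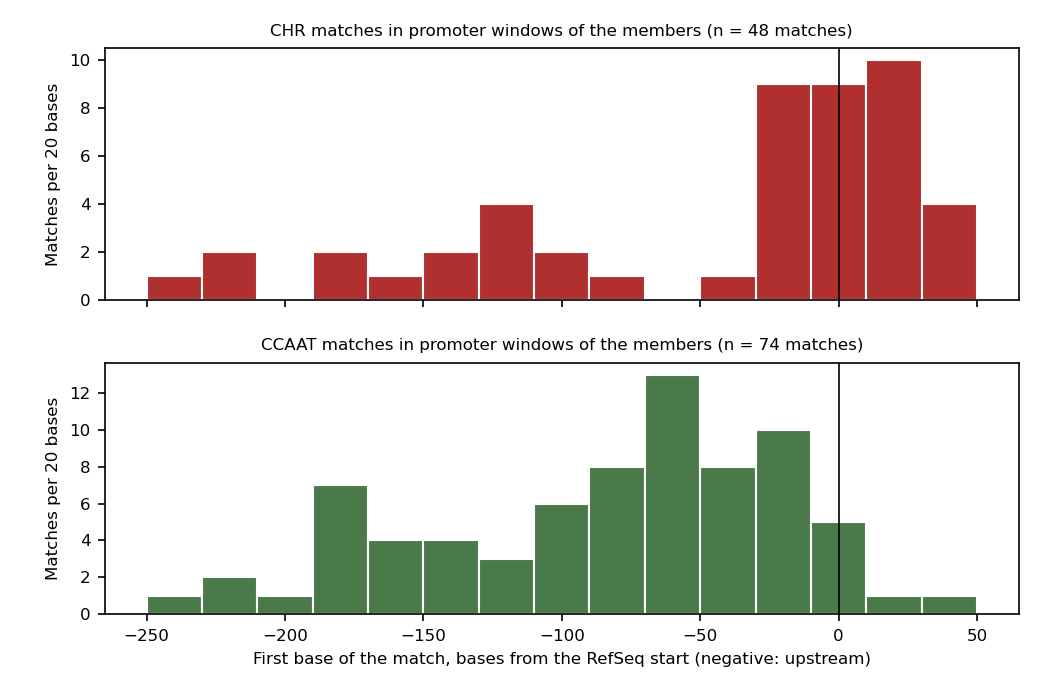
Position of CHR matches (top, 48 matches) and CCAAT matches (bottom, 74 matches) in the promoter windows of the 47 members with a window, as matches per 20 bases against the distance of the first base of the match from the RefSeq start. CHR matches gather around the start (median -16 bases), and CCAAT matches lie farther upstream (median -67.5 bases).

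Among the 11 mitotic kinesins, motors that move along spindle microtubules, 10 passed the limit downward in each comparison with control. Kif11 (ENSMUSG00000012443.4, chr19:37376403-37421859), the Eg5 motor that pushes the spindle poles apart, had 1838, 331 and 145 reads and stood at 19.3% (17.1 to 21.7%) and 7.84% (6.57 to 9.29%) of control. That was the lowest share of control among all 56 members in the combined library. Kif15, a second motor that can hold a bipolar spindle, had 549, 154 and 66 reads. The cytokinesis motors followed. Kif20a had 1221, 277 and 117 reads, Kif23, a subunit of centralspindlin, 1254, 317 and 261 reads, and Kif14, which binds the citron kinase at the midbody, 437, 99 and 41 reads. Kif20b, another cytokinesis motor, had 1592, 560 and 406 reads and had the highest share in the combined library among the kinesins that passed, 25.3% of control. The chromokinesins, which bind chromosome arms, stood at 13.3% for Kif4 (1240, 295 and 166 reads) and 18.3% for Kif22 (916, 272 and 169 reads). Kif2c, the MCAK protein that takes microtubule ends apart, had 738, 152 and 87 reads. The kinesin-8 motors, which shorten microtubules, differed from each other. Kif18b had 572, 184 and 95 reads, while Kif18a, which damps chromosome movement at the plate, had 165, 93 and 102 reads and did not pass the limit, at 60.3% (46.2 to 78.2%) and 61.4% (47.5 to 79.1%) of control. Only Cenpk had fewer control reads than Kif18a.

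All 11 centromere and kinetochore genes were lower than control past the limit in the combined library, and 10 of 11 after glucose oxidase. Cenpa, the histone H3 variant that marks centromeres, had 1128, 243 and 166 reads and ended at 14.6% of control. The 4 inner kinetochore genes of the constitutive centromere network kept the highest shares of the group in the combined library. Cenph had 242, 89 and 47 reads, Cenpi 329, 146 and 70 reads, Cenpn 331, 103 and 93 reads and Cenpk 86, 37 and 23 reads, which in the combined library was 19.3%, 21.1%, 27.9% and 26.6% of control. Cenpk was the 1 gene of the group that did not pass after glucose oxidase, with a log2 ratio of -0.95, and with 86 control reads it is the member with the fewest reads. The 4 subunits of the NDC80 complex, the rod that grips microtubules, were low together. Ndc80 had 615, 126 and 64 reads, Nuf2 1083, 247 and 105 reads, Spc24 515, 112 and 73 reads and Spc25 751, 239 and 145 reads. Their shares of control were 21.9%, 24.4%, 23.2% and 34.0% after glucose oxidase and 10.3%, 9.63%, 14.1% and 19.2% in the combined library. Cenpe, a kinesin of the outer kinetochore, had 1029, 238 and 164 reads, and Cenpf, a large protein of the corona, had 1606, 297 and 153 reads. Cenpf was the lowest of the 11, at 9.47% of control (7.97 to 11.2%).

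The 5 genes of the spindle checkpoint, which delays anaphase until every kinetochore is attached, spread widely. Of these, 3 passed the limit downward after glucose oxidase and 4 in the combined library. The kinase genes Bub1 and Ttk (the MPS1 kinase) had 973, 205 and 135 reads and 683, 194 and 84 reads, and Bub1b, which encodes BUBR1, had 1436, 373 and 181 reads. In the combined library these stood at 13.8%, 12.2% and 12.5% of control. Mad2l1, the MAD2 protein that holds CDC20 inactive, was less low with 1141, 573 and 464 reads, or 53.7% (48.5 to 59.4%) and 40.4% (36.2 to 45.1%) of control. It passed the limit in the combined library and not after glucose oxidase. Bub3 (ENSMUSG00000066979.6, chr7:131560222-131571895), whose promoter window is printed above, had 4485, 3746 and 3382 reads and intervals of 85.5 to 93.3% and 71.6 to 78.4% of control. Bub3 kept the largest share of its control level of all members after glucose oxidase.

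All 8 genes of the cyclin and mitotic kinase group were lower than control past the limit in the combined library, and 7 of 8 after glucose oxidase. Cdk1, the kinase that drives entry into mitosis, had 2190, 1037 and 837 reads. Its share of control, 50.6% (47.0 to 54.5%) and 38.0% (35 to 41.1%), was higher than that of each of its partners. The cyclins that activate it had 1723, 339 and 171 reads for Ccna2, 1281, 336 and 213 reads for Ccnb1 and 844, 135 and 111 reads for Ccnb2. After glucose oxidase they stood at 21%, 28.0% and 17.1%, the last being the lowest share of any member in that library. Ccnb1 shares 42.1% of its 50-base stretches with other genes, among them 3 listed processed pseudogenes each with 0 to 19 reads per library, so its count depends on how shared reads were assigned. Cdc25c, the phosphatase that switches CDK1 on, had 212, 61 and 29 reads. Plk1 (ENSMUSG00000030867.7, chr7:122159439-122169873), the polo-like kinase of centrosomes and kinetochores, had 1370, 281 and 110 reads and went from 21.9% (19.2 to 24.9%) to 7.98% (6.51 to 9.69%) of control. Aurka, the centrosomal aurora kinase, had 1032, 261 and 163 reads. Aurkb, the aurora kinase of the chromosomal passenger complex, had 1171, 325 and 148 reads and ended at 12.6% of control. The other subunits of that complex spread widely. Birc5 (survivin) had 1025, 261 and 120 reads, Cdca8 (borealin) 871, 346 and 261 reads and Incenp, the scaffold, 3448, 2099 and 2202 reads. In the combined library they stood at 11.6%, 29.8% and 63.5% of control, and Incenp did not pass the limit in either comparison.

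The 4 regulators of anaphase were all lower than control past the limit in both treated libraries. Cdc20, which activates the anaphase-promoting complex, had 1861, 458 and 208 reads, and Ube2c, the enzyme that starts ubiquitin chains for it, had 1558, 427 and 257 reads. Their shares in the combined library were 11.1% and 16.4%. Pttg1 (securin) had 603, 168 and 102 reads, and Espl1 (separase, the protease that securin holds in check and that cuts cohesin) had 1396, 344 and 180 reads. The securin and separase counts stood at 29.8% and 26.3% after glucose oxidase, and at 16.8% and 12.8% in the combined library. Cdc20 shares 11.4% of its stretches with other genes and Plk1 6.84%. With Ccnb1 these are the 3 members above 5%.

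Spindle microtubule proteins and cytokinesis genes were also low. Prc1, which bundles midzone microtubules, had 1704, 400 and 243 reads, Nusap1, which stabilizes microtubules near chromatin, 732, 214 and 106 reads, and Hmmr, a spindle pole protein, 1100, 264 and 129 reads. Their shares in the combined library lay between 11.7% and 14.4%. Tpx2 (ENSMUSG00000027469.16, chr2:152847964-152895321), which activates aurora A and seeds microtubules near chromosomes, had 3074, 1260 and 1581 reads. It passed the limit after glucose oxidase at 43.8% of control (41.0 to 46.8%) but not in the combined library at 51.1% (48.1 to 54.3%), where its log2 ratio was -0.96. Anln (anillin, a scaffold of the contractile ring) had 2439, 820 and 566 reads, and Ect2, the exchange factor that activates RhoA for the ring, had 753, 201 and 154 reads. Foxm1, the transcription factor that activates many G2 and M phase genes, had 1801, 765 and 516 reads, or 45.4% (41.7 to 49.4%) and 28.5% (25.8 to 31.4%) of control.

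Per kilobase of annotated exon, the members' normalized counts in control ran from 15.9 for Cenpk to 965 for Cdc20, with a median of 217. The next highest control levels per kilobase were Incenp at 772, Top2a at 717, Tpx2 at 637 and Bub3 at 620.3. In the combined library the highest were Incenp at 489.8, Bub3 at 465, Smc4 at 405 and Tpx2 at 325, while Cdc20 was at 107 and the median at 32.5. The order of levels thus differed between the libraries. Kif18a, at 61.4% of control, was among the low members per kilobase in both, at 16.3 and 9.99. Across the 56 members the log2 ratio hardly varied with the control level. Against log2 of the normalized control counts Pearson's r was 0.006 after glucose oxidase and 0.034 in the combined library. These points share 1 control library and are a description only.

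The next comparison is between the treated libraries, and asks how the mitotic genes differed where Et2HOBA had been added. The combined library had 18 of the 56 genes lower than the glucose oxidase library past the limit and 0 higher, against a background of 2.15% of listed genes lower (2.35% of protein-coding genes), 6.39% higher and 8.55% in either direction. Of the protein-coding genes, to which all 56 belong, 129 of 13285 were higher past the limit. The median log2 ratio of the members was -0.81, beside 0 over all listed genes, and the median member stood at 56.2% of the glucose oxidase level. The counting interval lay below 1 for 51 members, held 1 for 3 and lay above 1 for 2. The share of all listed genes with such intervals was not computed, so these counts describe the members alone. The 18 were Plk1, Kif20a, Nuf2, Kif11, Ttk, Kif15, Cdc20, Kif14, Aurkb, Birc5, Bub1b, Hmmr, Cenpi, Ccna2, Nusap1, Ncaph, Ncapd2 and Cenpf. They come from 8 of the 10 role groups, the exceptions being cytokinesis and the single transcription factor gene. Plk1 was lowest, at 36.4% of the glucose oxidase level (28.9 to 45.5%), followed by Kif14 at 38.5% (26.1 to 55.9%) and Kif20a at 39.3% (31.4 to 48.9%). At the other end Tpx2 was at 117% (108 to 126%) and Smc4 at 110.4% (104 to 118%), both above the glucose oxidase level. The intervals of Incenp, at 97.5% (91.8 to 104%), of Kif18a, at 102% (76.2 to 137%), and of Cenpn, at 83.9% (62.7 to 112%), held 1. The log2 ratio of Kif18a was 0.03 here and -0.06 with scaling to total reads. Ccnb2, which had the lowest share of control after glucose oxidase, differed little further, at 76.4% (58.9 to 99.0%). The 18 calls depend on the scale, and 6 passed with a pseudocount of 50, a setting without a computed share of all listed genes. The deposited values for this comparison cover 7 genes, and the scale fitted to those was applied to all genes. On that scale none of the members passed the limit, and their median was -0.23.

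**Figure D3:**
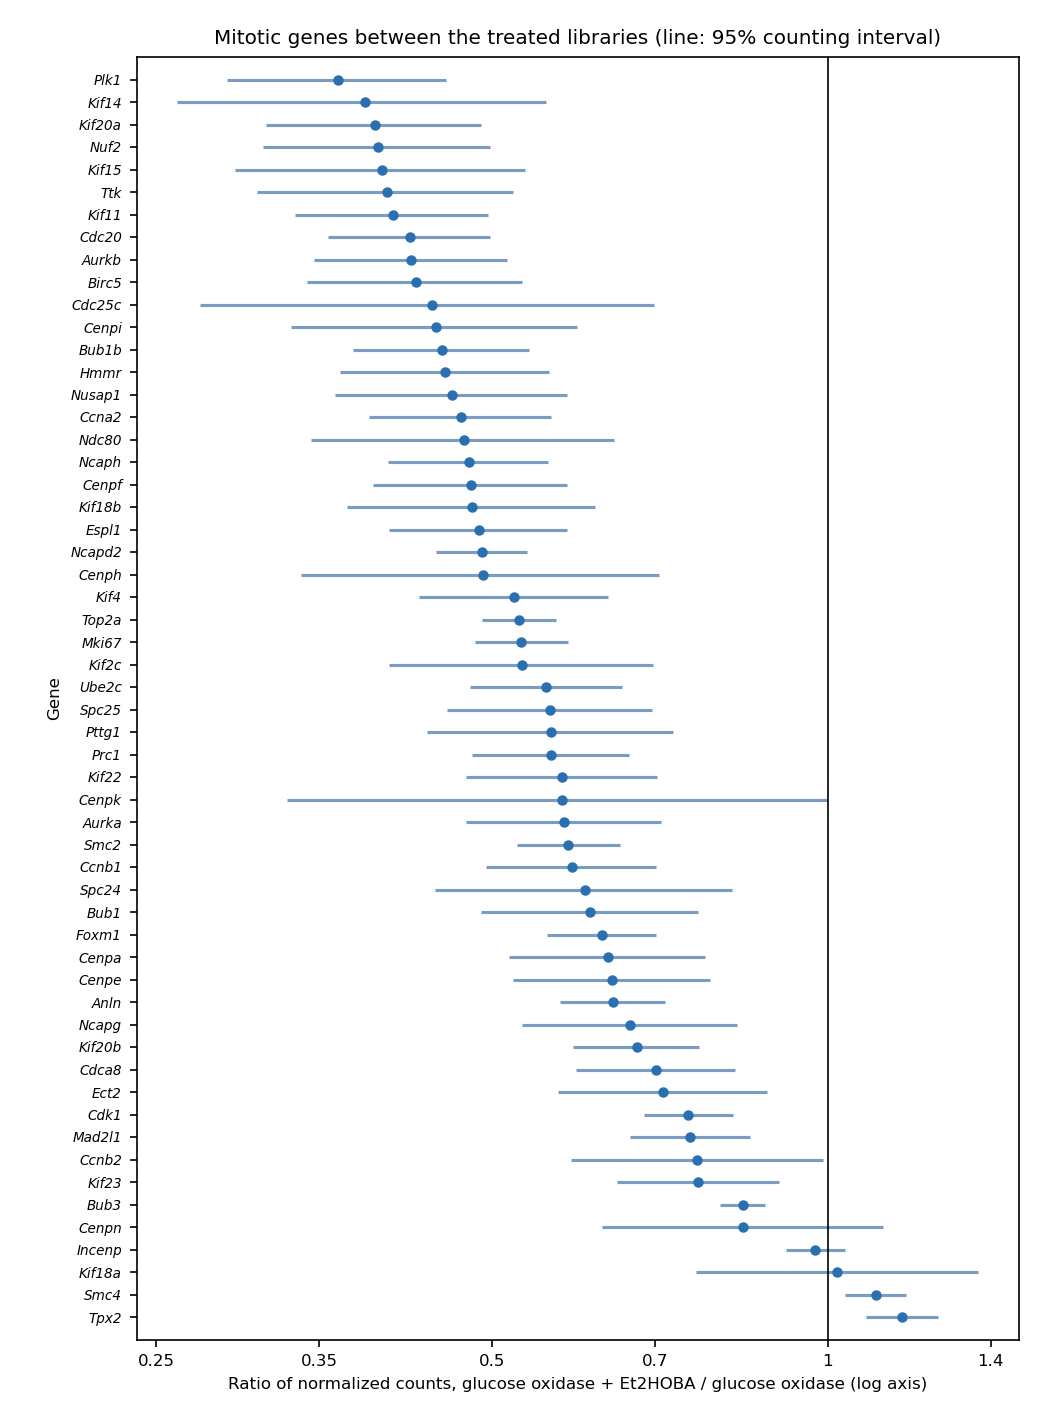
Ratio of normalized counts in the glucose oxidase plus Et2HOBA library to the glucose oxidase library (log axis) for the 56 mitotic genes, sorted by ratio; points are ratios and lines are 95% Clopper-Pearson counting intervals, with 1 library per group. Plk1 is lowest, and Kif18a, Smc4 and Tpx2 are the genes above 1.

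The authors' deposited table for glucose oxidase against control gave -1.91 for Kif11 and -0.15 for Bub3 on its own log2 scale. The authors' deposited table for both treatments against control gave -3.19 for Kif11 and -0.41 for Bub3. Those scales shrink low counts by different amounts, so their values are not set against each other. All 56 deposited values were below 0 in each of these tables.

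A further 118 genes of mitosis were looked at in 7 lists, none of which holds any of the 56. Of these, 42 passed the limit downward after glucose oxidase and 53 in the combined library, and 0 passed upward in either. The background downward was 8.60% and 8.04% of all listed genes (4.76% and 9.30% of protein-coding genes). Upward it was 4.07% and 6.66% of all listed genes. The 118 genes had median log2 ratios of -0.50 and -0.89. The lists differed. Of 32 other kinetochore and centromere genes 15 and then 20 were lower past the limit, led in the combined library by Knl1 (-3.19), the scaffold that recruits checkpoint proteins, Ska1 (-2.89) and Kntc1 (-2.47). Zwint (0.22), Zw10 (0.16) and Cenpb (0.06) had the highest log2 ratios of that list. Of 21 other spindle assembly and cytokinesis genes 11 and then 13 passed downward. Aspm, a spindle pole protein, had 1118, 245 and 92 reads, a combined library log2 ratio of -3.47. Cep55 (-3.11) and Fam83d (-3.03) were next, and Kif2a (0.49), Psrc1 (0.40) and Ckap5 (0.05) lay at the other end. Of 19 other mitotic kinases, cyclins and regulators 11 and then 13 passed, with Depdc1b at -3.56, Depdc1a at -3.54 and Cdca3 at -3.32. The G2 brake Wee1 (-0.51) and the phosphatases Cdc25a (-0.51) and Cdc25b (-0.60) did not pass. Depdc1a shares 62.6% of its stretches with other genes.

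The remaining 4 lists had smaller counts, to be read beside the same 8.60% and 8.04% of all listed genes downward. Cohesin, the ring that holds sister chromatids, and its regulators had 2 of 14 genes lower past the limit in each comparison, and medians of -0.21 and -0.13. The 2 were Esco2 (212, 40 and 15 reads), the acetyltransferase of S phase, and Cdca5 (463, 191 and 108 reads), which encodes sororin. The ring subunits Smc1a, Smc3 and Rad21 had combined library log2 ratios of -0.49, -0.41 and -0.09, and Pds5a had the highest of the list, 0.45. Of 17 genes of the anaphase-promoting complex and its partners only Fbxo5 passed, which encodes the inhibitor EMI1 and had 542, 164 and 119 reads. The medians of that list were -0.10 and -0.18. Of the 3 condensin II genes 1 passed downward after glucose oxidase and 2 in the combined library, with medians of -0.63 and -1.07. These were Ncapg2 at -1.45 and, past the limit there alone, Ncapd3 at -1.07 in the combined library, where Ncaph2 was at 0.10. Among 12 genes of the MuvB complexes and their partners, Mybl2, which encodes B-MYB, was lowest with 451, 141 and 81 reads and log2 ratios of -1.52 and -2.35. It shares 23.9% of its stretches with other genes, as Fbxo5 does 8.99% and Ncaph2 8.24%. Tfdp2 (-1.31) was the other one to pass in the combined library. E2f5 (0.44), E2f4 (0.26) and Lin37 (0.12) had the highest values, and the list's medians were -0.13 and -0.34.

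Kinesins that carry cargo in interphase were set beside the mitotic kinesins. Of 21 such genes 18 were listed, of which 0 passed the limit downward in either comparison. The count past the limit upward was 2 after glucose oxidase and 4 in the combined library, against backgrounds of 4.07% and 6.66% (602 and 974 of 13285 protein-coding genes). Their medians were 0.11 and 0.20, beside -1.86 and -2.83 for the 11 mitotic kinesins. Kif17 (42, 163 and 188 reads) and Kif21b (10, 57 and 56 reads), scarce in all libraries, passed upward in both and Kif3a and Kif3c in the combined library alone. Kif3a, a kinesin-2 motor of cilia, had 2110, 3624 and 5209 reads, and Kif5b, the main conventional kinesin, had 9990, 9589 and 12571 reads. The lowest log2 ratios of that list in the combined library were -0.67 for Klc4 and -0.66 for Kif26a. Genes of DNA replication, a step that precedes mitosis, were between these. Of 38, 13 passed downward after glucose oxidase and 26 in the combined library, with medians of -0.84 and -1.51. The downward backgrounds were 8.60% and 8.04% of all listed genes. Cdc6, which loads the replicative helicase, had 644, 180 and 37 reads, and Mcm5, a helicase subunit, 3041, 967 and 443 reads. The highest log2 ratios of that list in the combined library were those of Cdt1 (0.60), which loads the helicase with Cdc6, and Pold3 (0.17). Among 19 G1 cyclins, CDKs and CDK inhibitors 4 and then 5 were lower past the limit and 1 and then 2 higher, with medians of -0.03 and -0.12. The backgrounds for this list, downward and upward, are those given above. Ccnd1, the cyclin of G1 entry, had 13013, 22429 and 27556 reads, and Cdkn2b, the inhibitor p15, had 357, 987 and 1738 reads; these were the 2 higher in the combined library. The 5 lower there included the E cyclins of S phase entry, Ccne2 (398, 121 and 56 reads) and Ccne1 (756, 287 and 263 reads), and Cdkn2c (1427, 527 and 316 reads), a CDK4 and CDK6 inhibitor. The differences between these lists were not tested.

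**Figure D4:**
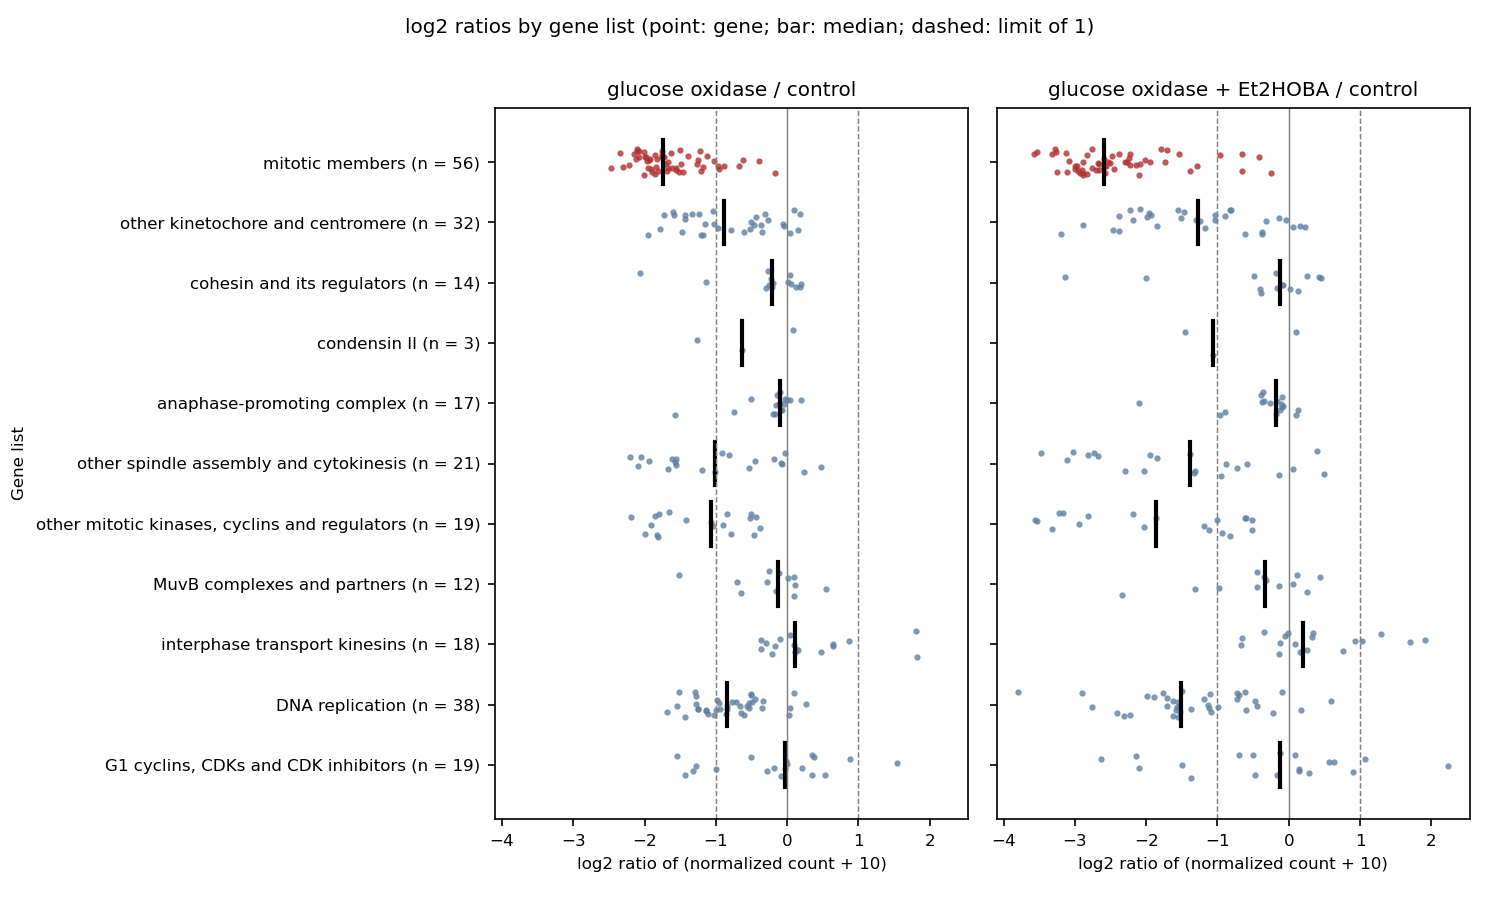
Log2 ratios of (normalized count + 10) against control for the 56 mitotic genes and 10 other gene lists, after glucose oxidase (left) and in the combined library (right); points are genes, bars are list medians, and dashed lines mark the limit of 1. The mitotic members have medians of -1.74 and -2.59, and the interphase kinesins of 0.11 and 0.20.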

How the data were processed

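Polyadenylated RNA was made into stranded libraries, per the labels' protocols. The submitters' processing notes name STAR, featureCounts and mm10, with no version or role; the annotation is not given in the sources used here. The authors deposited raw read counts for control and glucose oxidase plus Et2HOBA with log2 differences, and log2 differences alone for glucose oxidase against control. Which comparison a table without a header holds was taken from its deposited name.

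Reads of the glucose oxidase library were computed back from its log2 differences and the control counts. The authors' log2 values match arcsinh-transformed square roots of counts with a constant for each library, to within 1e-09. Undoing this transform gave counts within 0.01 of a whole read for 100% of 18275 genes matched by symbol (3.31% with every control count raised by 1), and 12 further genes were placed by whole reads. The recovered counts and the 7 deposited differences between the treated libraries agree within 1e-09. The recovery and the limit were also run on simulated Poisson counts, transformed with the same function that was then undone. That simulation held no spread between libraries beyond counting error. It therefore cannot show how the limit performs with 1 library per group.

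Size factors (1.03, 0.965 and 1.04) came from the median of ratios over all 3 libraries, normalized counts are reads divided by them, and a pseudocount of 10 was added for log2 ratios. No count model was used, because no group has a spread. Alternatives were total-count and edgeR 4.0.16 TMM scaling, pseudocounts of 1 and 50, a filter at a mean normalized count of 10, the deposited scales, limits of 0.5 and 2, and genes that share no 50-base stretch, or at most 5% of stretches (chosen after seeing the data), with another gene of GENCODE release M21. Of the listed gene IDs 17878 had the same version there, all at the same position. Members and lists were chosen with earlier results of these data known. All members are named. From each list the text draws on the 3 lowest and 3 highest genes in the combined library among those with at least 100 control reads, and genes outside this rule (Smc3, Rad21, Kif5b, Kif17, Kif21b and the cell type markers) were chosen for their roles after their values were seen.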

Additional observations from a re-analysis of the deposited data

How the results depend on the processing

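Under all 10 alternatives 0 members passed the limit upward, in each of the 3 comparisons. The share of all listed genes past the limit was not computed under these alternatives, so the counts describe the members alone. Against control, the counts of members lower past the limit stayed within 1.5 times of 49 and 51 except where fewer genes were counted or the limit was raised: 24 and 25 of the 27 members that share no 50-base stretch, and 12 after glucose oxidase at a limit of 2. With the deposited scales, the counts were 43 and 50. The count between the treated libraries, 18, was the least stable: 6 when 50 was added as pseudocount, 0 by the deposited scale, 8 of the 27 members that share no stretch, 44 for a limit of 0.5 and 0 for one of 2. The median log2 ratio after glucose oxidase was -1.60 for the pseudocount of 50 and -1.28 by the deposited scale. In the combined library against control it was -2.74 with total read count scaling, -2.34 with a pseudocount of 50, -2.28 on the deposited scale and -2.48 over the members that share no stretch. Between the treated libraries the pseudocount of 50 gave -0.65, and the scale fitted to the 7 deposited differences gave -0.23. A larger pseudocount pulls log2 ratios of low counts toward 0 by construction, and the deposited scales act likewise. Total read count scaling moved the all-gene median to -0.06, -0.13 and -0.08 in the 3 comparisons and changed the sign of 1 member value, Kif18a between the treated libraries (-0.06 against 0.03). Leaving out a replicate was not possible with 1 library per group. No paired analysis was possible because each group has 1 library and the labels carry no replicate numbers. Depth limits the scarcest members: Cenpk, with 86 control reads, Cdc25c, Kif14 and Cenph have the widest intervals relative to their share of control in the combined library.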
